A study of Mus musculus with 10 samples.

Results

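Interferon-stimulated genes are the genes that cells switch on when they sense interferon, and 35 of them were followed here in mouse liver during acute injury induced by an antibody that activates CD95. The 35 genes were taken from a list of names, which was matched by gene symbol to the Ensembl identifiers of the RNA-seq tables. All 35 were found among the 38922 genes of the tables, and all 35 passed the filter on low counts, which left 13719 genes to test. Livers came from wild-type, male, 6-week-old C57BL/6N mice, 5 injected intraperitoneally with CD95-Ab at 0.5 μg per g of body weight and 5 injected with an equal volume of saline. All 10 animals were sacrificed after 6 h. CD95-Ab is a hamster antibody against mouse CD95 (clone Jo2), and the control injection was saline, so the samples hold no mice given an unrelated antibody. Whole liver was sequenced, and in such bulk samples fewer cells of a type and less RNA per cell cannot be told apart. Mice are numbered 1 to 5 within each group as in the sample titles. The numbers name animals, and the sample descriptions give no batch for them.

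Type I interferons (the alpha interferons, interferon beta and their relatives) bind the receptor IFNAR1/IFNAR2, whose kinases JAK1 and TYK2 phosphorylate STAT proteins. STAT2 joins IRF9 in the complex ISGF3, which binds the interferon-stimulated response element (ISRE) in the promoters of its targets. Interferon gamma signals through IFNGR1/IFNGR2, JAK1 and JAK2 to STAT dimers, which bind a different element, the gamma-activated site (GAS). The products block viral RNA and proteins, restrict intracellular pathogens, and sense nucleic acids, and several of the genes can also be switched on through IRF1, IRF3 or nuclear factor κB without interferon.

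The letters of the ISRE are visible in the promoters of many of the 35 genes. RefSeq promoter windows on GRCm38.p6, from 250 bases before to 50 bases after a transcription start, were at hand for 28 of the 35 genes. The ISRE core was searched as GAAANNGAAA on both strands, where N is any base, and overlapping matches were all kept. At least 1 match lay in the windows of 18 of the 28 genes (64.3%), against 3.99% of the 27025 genes with a window. The shorter GAS core TTCNNNGAA was found in 8 of the 28 genes (28.6%), against 9.55% of all genes with a window. The κB motif, searched by its 10-base consensus, was in 7 of the 28 (25%), against 9.55%. Some κB, GAS and ISRE matches lie side by side or overlap, as they do in Bst2. For 9 genes the 160 bases before the start follow, with ISRE cores in capitals (read as the reverse complement where the core lies on the other strand). They serve as examples from several role groups, picked with the RNA levels known. Where a run of capitals exceeds 10 bases, cores overlap.
Isg15 (chr4:156200819-156200978, minus strand): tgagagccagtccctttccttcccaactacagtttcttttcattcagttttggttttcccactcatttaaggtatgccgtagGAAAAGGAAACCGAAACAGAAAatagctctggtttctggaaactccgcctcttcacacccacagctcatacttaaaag
Ifit1 (chr19:34640729-34640888, plus strand): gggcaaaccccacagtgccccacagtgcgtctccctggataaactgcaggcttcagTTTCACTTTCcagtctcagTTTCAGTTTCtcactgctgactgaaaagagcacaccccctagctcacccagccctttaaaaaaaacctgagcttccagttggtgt
Ifit3 (chr19:34583369-34583528, plus strand): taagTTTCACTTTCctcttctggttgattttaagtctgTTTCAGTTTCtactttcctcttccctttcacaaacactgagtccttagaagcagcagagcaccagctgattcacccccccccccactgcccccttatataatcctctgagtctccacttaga
Rsad2 (chr12:26456453-26456612, minus strand): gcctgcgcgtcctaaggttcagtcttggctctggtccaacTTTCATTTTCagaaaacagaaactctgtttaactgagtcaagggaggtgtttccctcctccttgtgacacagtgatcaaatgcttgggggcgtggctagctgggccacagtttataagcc
Oas1a (chr5:120907526-120907685, minus strand): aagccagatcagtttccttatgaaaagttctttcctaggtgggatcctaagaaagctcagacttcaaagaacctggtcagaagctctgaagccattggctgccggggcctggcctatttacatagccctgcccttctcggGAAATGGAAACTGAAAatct
Oas1g (chr5:120887614-120887773, minus strand): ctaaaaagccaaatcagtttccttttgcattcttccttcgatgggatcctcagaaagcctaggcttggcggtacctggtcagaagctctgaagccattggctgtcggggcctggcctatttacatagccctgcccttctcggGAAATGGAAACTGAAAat
Gbp2 (chr3:142620503-142620662, plus strand): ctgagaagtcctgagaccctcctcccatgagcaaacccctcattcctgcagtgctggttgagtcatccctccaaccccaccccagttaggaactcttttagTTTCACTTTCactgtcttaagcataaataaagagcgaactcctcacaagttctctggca
Irgm1 (chr11:48871421-48871580, minus strand): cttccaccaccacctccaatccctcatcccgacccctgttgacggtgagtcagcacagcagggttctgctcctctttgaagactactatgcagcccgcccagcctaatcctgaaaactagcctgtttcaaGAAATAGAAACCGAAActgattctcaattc
Bst2 (chr8:71537473-71537632, minus strand): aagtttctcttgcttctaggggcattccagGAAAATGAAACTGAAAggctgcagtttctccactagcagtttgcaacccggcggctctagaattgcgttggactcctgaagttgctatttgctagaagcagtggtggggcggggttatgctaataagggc

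In Isg15, 3 cores overlapped, with their first bases 78, 72 and 66 bases before the start. Ifit1 held separate cores at 104 and 85 bases before the start, and Ifit3 at 156 and 122. Oas1a and Oas1g carried the same pair of overlapping cores, close to the start in both (20 and 14 bases before it in Oas1a, 18 and 12 in Oas1g). Over the windows of the 28 genes there were 29 ISRE matches, of which 22 lay within 150 bases before the start. Irf1, which encodes an interferon-inducible transcription factor, had no ISRE core in its windows but a GAS core 90 bases before the start. A κB match lay 13 bases before the start. In the stretch that follows, the GAS core is in capitals and the κB match in lower case.
Irf1 (chr11:53769854-53770013, plus strand): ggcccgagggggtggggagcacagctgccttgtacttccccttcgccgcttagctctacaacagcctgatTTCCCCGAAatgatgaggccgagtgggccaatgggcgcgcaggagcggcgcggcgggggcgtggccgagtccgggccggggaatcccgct
Usp18, Mx1, Mx2, Oas2, Iigp1, Parp14 and Rtp4 had no window in the table.

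**Figure D1:**
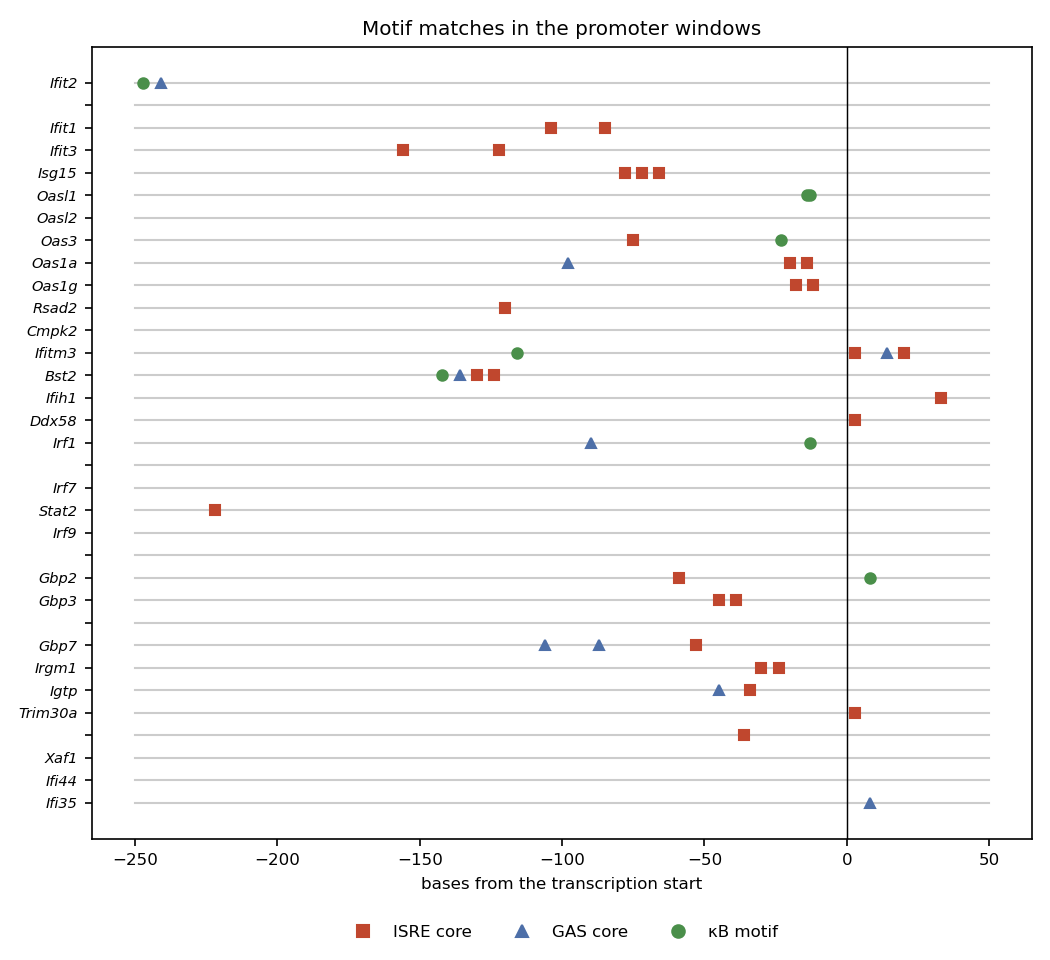
Matches to the ISRE core (squares), the GAS core (triangles) and the κB motif (circles) in the promoter windows of 28 interferon-stimulated genes; the x axis gives the first base of each match relative to the transcription start in bases, and each grey line is 1 window (33 in all). Most squares (22 of 29) lie in the 150 bases before the start.

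After CD95-Ab, 26 of the 35 interferon-stimulated genes were higher and 0 were lower at a false discovery rate (FDR) of 0.05 or less in edgeR's quasi-likelihood test. Over all 13719 genes tested, 25.4% were higher and 22% were lower. None of the 35 was lower at an unadjusted p under 0.05 either, and DESeq2 and limma-voom also called 0 lower. The fitted log2 fold change was positive in all 35, with a median of 1.46 and a range from 0.01 (Bst2) to 3.53 (Gbp2), against a median of 0.006 for all genes tested. Under the alternatives run, Bst2 was the one gene whose sign changed, and its log2 fold change lay between -0.23 and 0.17 when 1 mouse was left out. With a log2 fold change of 2 or more as a second requirement, 10 of the 35 remained (28.6%), against 6.59% of all genes. That number was 6 without CD95-Ab mouse 2. None fell by 2 or more on the log2 scale, where 1.11% of all genes did. In 19 of the 35 (54.3%) every CD95-Ab mouse lay above every saline mouse, against 18.6% of all genes, and in 0 did every CD95-Ab mouse lie below every saline mouse, against 14.8%.

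**Figure D2:**
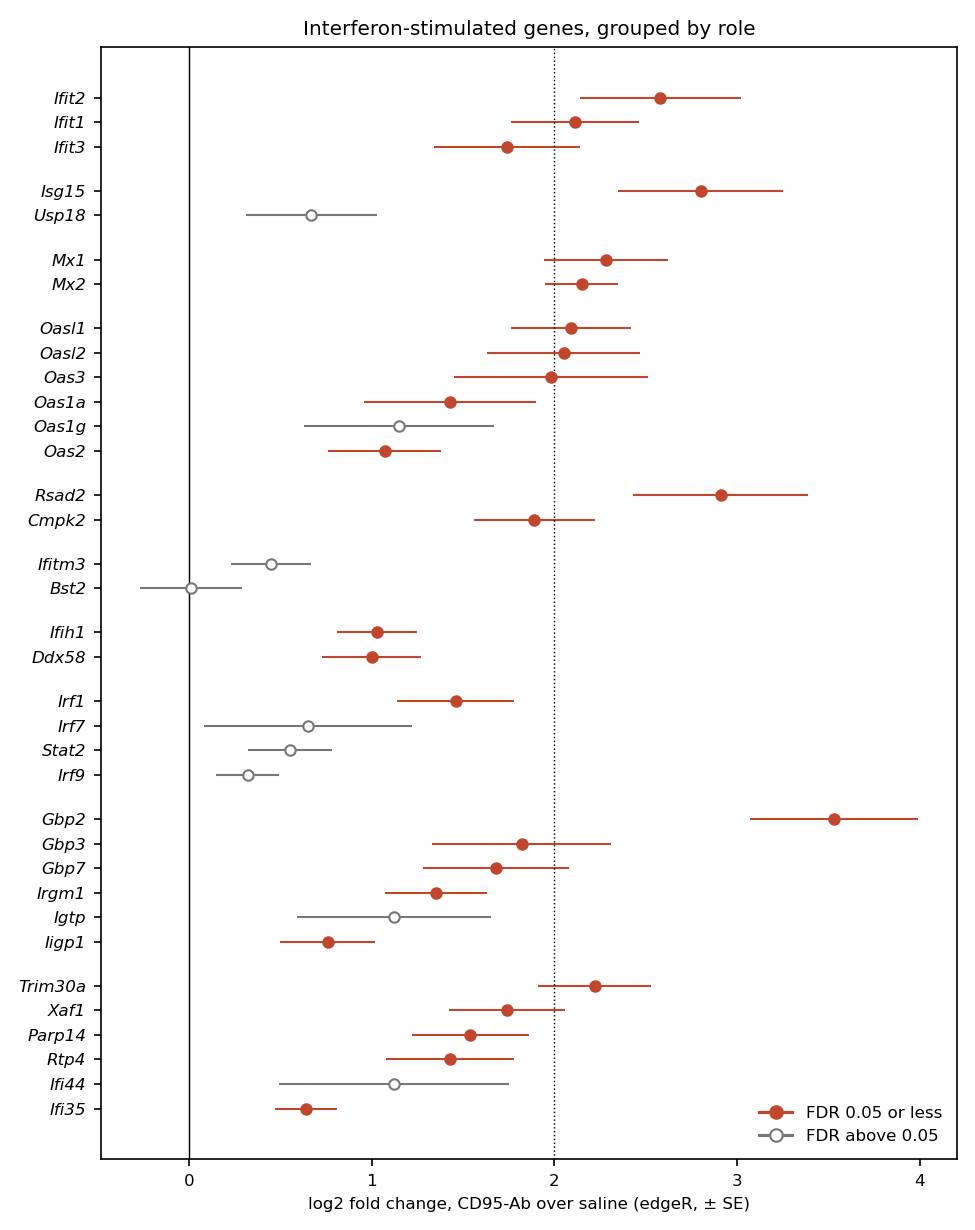
Log2 fold change of CD95-Ab over saline (x axis, edgeR, bars are standard errors) for the 35 interferon-stimulated genes, in blocks by role; filled points passed FDR 0.05 and the dotted line marks a log2 fold change of 2. All points lie at or to the right of 0, the 26 filled ones between 0.64 and 3.53.

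ISG15 is a ubiquitin-like protein that is attached to other proteins during the interferon response. Its RNA stood at 13.2, 23.6, 8.45, 14.8 and 12.9 CPM (counts per 1000000 of the TMM-adjusted total of the mouse) in saline mice 1 to 5, and at 109, 224, 68.2, 72.4 and 36.0 CPM in CD95-Ab mice 1 to 5. The groups did not overlap, and CD95-Ab mouse 2 was far above the other four. The log2 fold change was 2.80 ± 0.45 (SE, FDR = 0.000355). Usp18, the protease that removes ISG15 and dampens signaling from IFNAR2, behaved otherwise, with 17.7 to 34.8 CPM in the saline mice and 17.5 to 78.2 CPM in the CD95-Ab mice. These ranges overlapped and its log2 fold change of 0.67 ± 0.36 did not pass the test (FDR = 0.150). Without CD95-Ab mouse 4, the lowest of its group, it did (0.85, FDR = 0.0487). Leaving out the lowest CD95-Ab mouse favors such a call, and no other alternative run gave it.

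The 3 Ifit genes, whose products bind foreign RNA and hinder its translation, all rose. Ifit1 was at 14.4, 22.5, 12.7, 14.1 and 8.91 CPM in saline mice and at 72.1, 120, 43.6, 37.5 and 40.0 CPM in CD95-Ab mice, a log2 fold change of 2.11 ± 0.35 (FDR = 0.000446). Ifit2 moved by 2.58 ± 0.44 on the log2 scale (FDR = 0.000502) and Ifit3 by 1.74 ± 0.40 (FDR = 0.00396). For Ifit1 and Ifit2 the groups were apart, while for Ifit3 the lowest CD95-Ab mouse (37.9 CPM) lay below the highest saline mouse (39.2 CPM). Ifit3 shares 31.7% of its 100-base stretches with Ifit3b, so reads between these genes may have been divided in counting.

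Rsad2 (viperin, an enzyme that makes a chain-terminating nucleotide) and its genomic neighbor Cmpk2, a mitochondrial nucleotide kinase, rose too. Rsad2 was at 9.19, 16.8, 16.4, 15.0 and 4.32 CPM with saline and at 51.5, 196, 104, 42.1 and 68.5 CPM with CD95-Ab. Every CD95-Ab mouse exceeded every saline mouse, with a log2 fold change of 2.91 ± 0.48 (FDR = 0.000409). For Cmpk2 it was 1.89 ± 0.33 (FDR = 0.000684). The Mx family encodes dynamin-like GTPases that trap viral particles. Only RNA was measured, so working Mx proteins in these mice are not shown. Mx2 went from 5.50, 8.27, 4.56, 6.04 and 7.80 CPM to 22.5, 33.4, 24.6, 38.1 and 24.2 CPM (log2 fold change 2.15 ± 0.20, FDR = 8.52e-06). Mx2 separated the groups and had the lowest FDR among the 35. Mx1 had a similar log2 fold change of 2.28 ± 0.34 (FDR = 0.000214) at a lower level, 1.81 to 6.02 CPM in saline mice and 11.4 to 24.6 CPM in CD95-Ab mice.

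Of the 6 genes of the OAS family, 5 rose. Oligoadenylate synthetases sense double-stranded RNA, and most of them make the messenger that activates RNase L. The catalytically inactive relative Oasl1 and the related Oasl2 had log2 fold changes of 2.09 ± 0.33 (FDR = 0.000355) and 2.05 ± 0.42 (FDR = 0.00189), and their groups did not overlap. Oas3 followed at 1.98 ± 0.53 (FDR = 0.0088) and Oas2 at 1.07 ± 0.31 (FDR = 0.0147). Oas1a was at 9.71, 13.7, 3.04, 3.65 and 4.02 CPM in saline mice and at 25.5, 32.4, 12.8, 9.20 and 11.8 CPM in CD95-Ab mice. Saline mouse 2 exceeded 3 of the CD95-Ab mice, and Oas1a passed the test narrowly (1.43 ± 0.47, FDR = 0.0259). The call did not hold when saline mouse 3, 4 or 5 or CD95-Ab mouse 1 or 2 was left out (FDR = 0.0546, 0.0634, 0.0589, 0.0581 and 0.0755). Oas1g, its near copy, did not pass in edgeR (1.15 ± 0.52, FDR = 0.0857), but did in DESeq2 (FDR = 0.0462) and limma-voom (FDR = 0.0374). In edgeR it passed without saline mouse 2, the highest saline mouse (1.68, FDR = 0.0138), whose removal favors a call. Oas1a shares 40.9% of its 100-base stretches with Oas1g, and Oas1g 31.2% with Oas1a, so the division of reads between them is uncertain.

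The cytosolic RNA sensors Ifih1 (MDA5) and Ddx58 (RIG-I), which report viral RNA to the adaptor MAVS, about doubled, with fitted folds of 2.04 and 1.99. Ifih1 lay between 21.7 and 39.1 CPM in the saline mice and between 47.7 and 98.9 CPM in the CD95-Ab mice, with no overlap (FDR = 0.00274). For Ddx58 the ranges were 13.6 to 33.1 and 32.2 to 67.1 CPM and touched (FDR = 0.00895).

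Guanylate-binding proteins and immunity-related GTPases disrupt vacuoles and membranes of intracellular pathogens and are classical targets of interferon gamma. Of these 6 genes, 5 rose, and Gbp2 rose more than any other of the 35 genes. Gbp2 was at 8.56, 10.3, 3.07, 3.77 and 2.50 CPM with saline and at 86.7, 95.9, 70.2, 37.8 and 34.8 CPM with CD95-Ab, a log2 fold change of 3.53 ± 0.46 (FDR = 7.89e-05). In both groups mice 1 and 2 were the highest, yet the lowest CD95-Ab mouse exceeded every saline mouse. Its neighbors on the chromosome, Gbp3 (1.82 ± 0.49, FDR = 0.00962) and Gbp7 (1.68 ± 0.40, FDR = 0.00468), rose by less. Irgm1, a regulator of the other IRG GTPases, rose by 1.35 ± 0.28 on the log2 scale (FDR = 0.00185). The effector GTPase Iigp1, already at 198 to 535 CPM in saline mice, rose by 0.76 ± 0.26 (FDR = 0.0283). That call was lost without saline mouse 3 (FDR = 0.0653), saline mouse 4 (FDR = 0.0560) or CD95-Ab mouse 2 (FDR = 0.0803). Igtp (Irgm3) was at 76.5, 111, 18.5, 30.3 and 18.5 CPM in saline mice and at 164, 179, 74.2, 76.3 and 58.9 CPM in CD95-Ab mice. Saline mice 1 and 2 overlapped the CD95-Ab range, and the log2 fold change of 1.12 ± 0.53 did not pass (FDR = 0.1). Without saline mouse 2, the highest saline mouse, it did (1.61, FDR = 0.0206), though leaving that mouse out favors a call. Igtp also passed in limma-voom with all mice (FDR = 0.0492). Igtp overlaps Irgm2 on the same strand over 8.01% of its exon bases.

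Among the 4 transcription factors, Irf1 rose. Irf1, an early activator induced by interferon gamma and by inflammatory cytokines, was at 20, 45.1, 13.9, 18.7 and 19.7 CPM with saline and at 50.1, 55.7, 50.8, 104 and 61.9 CPM with CD95-Ab. The groups did not overlap (log2 fold change 1.46 ± 0.32, FDR = 0.00262). Irf7, which amplifies the production of alpha interferons, was at 112, 153, 24.8, 32 and 33.7 CPM in saline mice and at 160, 221, 56.6, 67.5 and 53.6 CPM in CD95-Ab mice. Saline mice 1 and 2 exceeded CD95-Ab mice 3, 4 and 5, and the log2 fold change was 0.65 ± 0.57 (FDR = 0.372). The ISGF3 subunits Stat2 and Irf9 had log2 fold changes of 0.55 ± 0.23 (FDR = 0.0662) and 0.32 ± 0.17 (FDR = 0.132), with overlapping groups. Without saline mouse 2 both passed the test, at 0.66 (FDR = 0.0437) and 0.47 (FDR = 0.0224), so that 3 of the 4 factors were then higher. For both genes it was the highest saline mouse, so leaving it out favors a call. No other alternative run called Stat2 or Irf9.

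Bst2 and Ifitm3 act at membranes, Bst2 (tetherin) by holding budding viruses on the cell and Ifitm3 by blocking fusion in endosomes, and neither passed the test. Bst2 was at 220, 238, 123, 134 and 149 CPM in saline mice and at 186, 286, 160, 147 and 94.1 CPM in CD95-Ab mice. The CD95-Ab mice spanned the whole saline range (log2 fold change 0.01 ± 0.28, FDR = 0.971), although the Bst2 stretch shown above carries overlapping ISRE cores. Ifitm3 was between 236 and 460 CPM with saline and between 314 and 629 CPM with CD95-Ab (0.45 ± 0.22, FDR = 0.102). It passed without saline mouse 2 (0.58, FDR = 0.0447) or without CD95-Ab mouse 5 (0.57, FDR = 0.0446). These were the highest saline mouse and the lowest CD95-Ab mouse, so leaving out either favors a call. No other alternative run called Ifitm3.

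Of the 6 remaining genes, 5 rose. Trim30a, which restrains signaling by nuclear factor κB, went from 6.03 to 16.4 CPM in saline mice to 32.3 to 75.3 CPM in CD95-Ab mice (2.22 ± 0.31, FDR = 0.000125). The pro-apoptotic factor Xaf1 rose by 1.74 ± 0.32 on the log2 scale (FDR = 0.00089), the ADP-ribosyltransferase Parp14 by 1.54 ± 0.32 (FDR = 0.00187) and the receptor chaperone Rtp4 by 1.43 ± 0.35 (FDR = 0.00515). In these 4 genes the groups did not overlap. Ifi35 rose least among the genes that passed (0.64 ± 0.17, FDR = 0.0095), and 16.8% of its exon bases overlap Gm11626 on the opposite strand, a gene at under 0.1 CPM on average in both groups. Ifi44 did not pass (1.12 ± 0.63, FDR = 0.162): saline mice 1 and 2 stood at 13.5 and 19.7 CPM, above CD95-Ab mice 3, 4 and 5 at 9.87, 6.45 and 9.12 CPM.

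**Figure D3:**
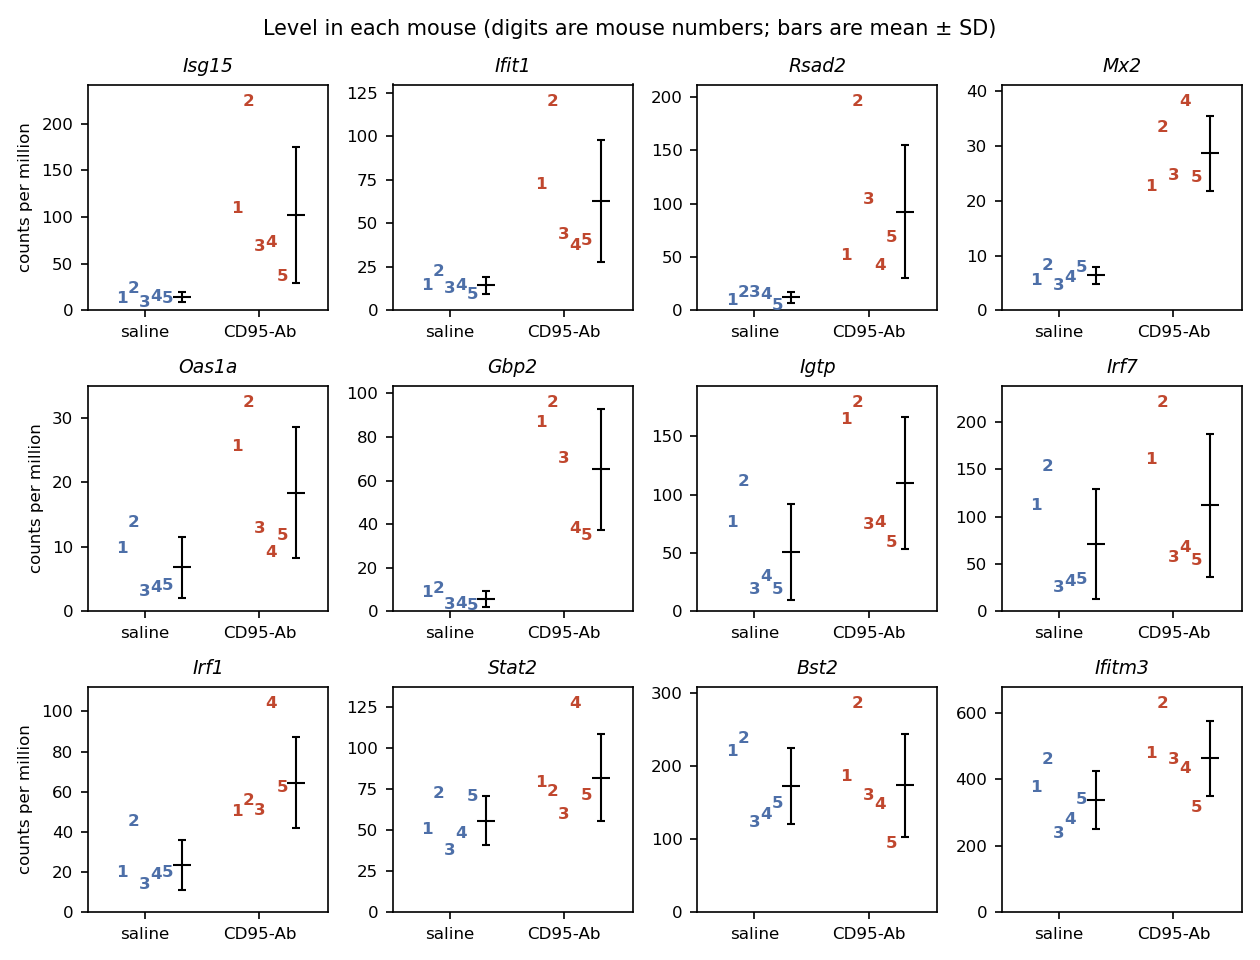
Level of 12 interferon-stimulated genes in each mouse (y axis, CPM from 0; digits are mouse numbers, blue for saline and red for CD95-Ab; black bars are mean ± SD of 5 mice). Isg15, Ifit1, Rsad2, Mx2, Gbp2 and Irf1 separate the groups, whereas in Igtp, Irf7, Stat2, Bst2 and Ifitm3 they overlap and in Oas1a saline mouse 2 reaches into the CD95-Ab range.

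Within each group, many of the 35 genes put the mice in a like order. Saline mouse 2 was the highest saline mouse in 34 of the 35 (in Oas2 it was mouse 5), and CD95-Ab mouse 2 was the highest of its group in 31. Mice 1 and 2 were both above mice 3, 4 and 5 in 27 of the 35 genes with saline and in 29 with CD95-Ab, and in 26 genes in both groups. Over all genes tested, mice 1 and 2 were the 2 highest in 16.5% with saline and in 10.4% with CD95-Ab. The mean of mice 1 and 2 divided by the mean of mice 3, 4 and 5 had a median of 1.89 with saline and 1.76 with CD95-Ab over the 35 genes, against 0.99 and 0.96 over all genes tested. The median coefficient of variation was 43.9% with saline and 42.8% with CD95-Ab, against 19.4% and 21.6%. Irf1, Stat2 and Mx2 departed from this order after CD95-Ab, with mouse 4 as the highest. This order was noticed in these data, and mice that share a number across groups are not known to share anything else.

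**Figure D4:**
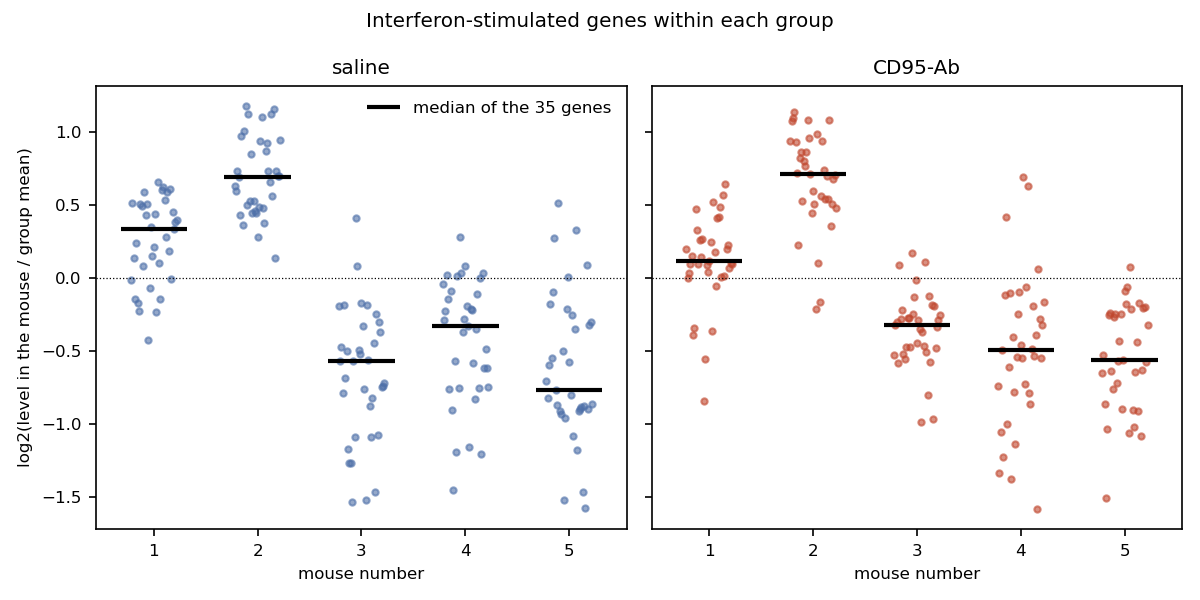
Log2 of the level in each mouse divided by its group mean (y axis), by mouse number (x axis), for the 35 interferon-stimulated genes in the saline group (left) and the CD95-Ab group (right); points are genes and black bars are medians over the genes. In both groups the medians of mice 1 and 2 lie above the group mean and those of mice 3, 4 and 5 below it.

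When the 4 mice numbered 1 and 2 were set aside, a choice made after seeing this order, 28 of the 35 genes were higher and 0 lower in the remaining 3 saline and 3 CD95-Ab mice. Over all 13838 genes tested in those mice, 17.3% were higher and 9.49% lower. The 4 mice were picked for their high levels of these same genes. Leaving them out narrows the spread of many of these genes within groups and so favors calls. Of the 28 genes, 24 were among the 26 called with all mice. Ifi44, Igtp, Irf7 and Oas1g were called with 6 mice and not with 10, with log2 fold changes of 1.2, 1.63, 0.96 and 1.66. Oas2 (1.02, FDR = 0.101) and Ifi35 (0.45, FDR = 0.168) were called with 10 and not with 6. Gbp2 had a log2 fold change of 3.93 ± 0.32 (FDR = 0.000119) in the 6 mice.

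Per length, the genes kept much of their order. On the deposited FPKM scale (fragments scaled by gene length and by depth), Ifitm3 (570 ± 192, SD, n = 5), Bst2 (258 ± 102) and Iigp1 (131 ± 55.9) were the top 3 in saline livers, in that order, and were also the top 3 after CD95-Ab at 728 ± 207, 243 ± 108 and 207 ± 67.1 FPKM. The next ranks in saline livers, Irf7 (43.2 ± 38.4), Irgm1 (31.2 ± 15.6), Igtp (28.8 ± 25.3) and Isg15 (22.0 ± 10.1), each differed from the next of these 4 by less than either SD. Isg15 moved from rank 7 to rank 4 (145 ± 108 FPKM), and Gbp2 from rank 30 (2.48 ± 1.75) to rank 12 (26.3 ± 12.9). Oas3 was the lowest in both groups (0.83 ± 0.717 and 3.02 ± 1.61). The genes with the highest saline FPKM thus included those with small fold changes.

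**Figure D5:**
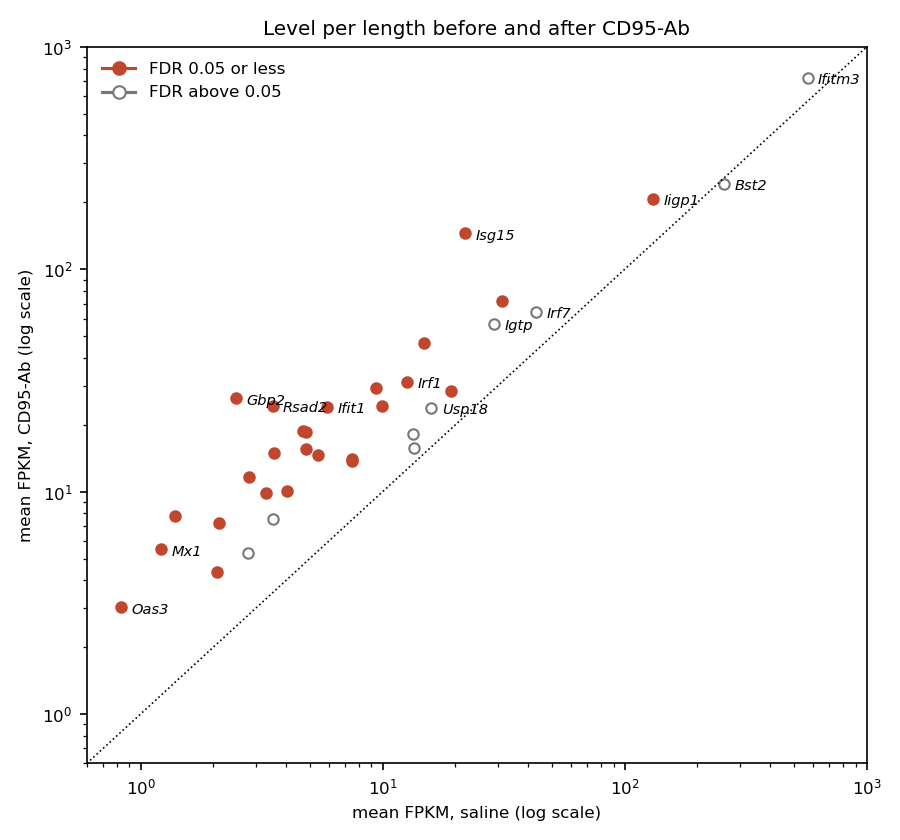
Mean deposited FPKM of the 35 interferon-stimulated genes in saline livers (x axis, log scale) and CD95-Ab livers (y axis, log scale), n = 5 mice each; filled points passed FDR 0.05 and the dotted line marks equal levels. Isg15 and Gbp2 lie far above the line, while Bst2 lies on it and Ifitm3 just above it.

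The genes were spread over 14 chromosomes, and 16 of the 35 lay in 6 groups of members no more than 100000 bases apart (GENCODE release 21 for mouse, GRCm38). These were Ifit2, Ifit3 and Ifit1 (chr19:34550694-34650009), Gbp7, Gbp3 and Gbp2 (chr3:142530342-142638008), Oas2, Oas3, Oas1g and Oas1a (chr5:120730333-120907521), Oasl2 and Oasl1 (chr5:114896936-114937915), Rsad2 and Cmpk2 (chr12:26442746-26479837), and Mx1 and Mx2 (chr16:97447035-97560900). Of these 16 genes, Oas1g alone was not called by edgeR, and DESeq2 and limma-voom called it. Of the 18 genes with an ISRE core in a window, 13 were called higher and their median change was 1.55 on the log2 scale. Of the 10 genes without one, 7 were called, and the median was 1.6. Among all genes tested, 25.4% were higher. Only the exact core in these windows was searched, so genes without a match may hold an element elsewhere or in other letters. Whether the ISRE bears on the change was not tested.

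The interferons themselves were at or near 0. Of 17 interferon genes in the tables, 0 passed the filter. Ifnb1, Ifne, Ifnl2, Ifnl3 and the 10 alpha interferon genes analysed had 0 counts in every mouse, except for 1 count of Ifna14 in CD95-Ab mouse 4. A count of 0 allows a level of up to 0.0556 to 0.121 CPM per library, taking 3 counts as the limit. Ifnk had at most 3 counts and Ifnz at most 1 in any mouse. Ifng, the type II interferon made by T and NK cells, had 5, 2, 0, 0 and 1 counts in saline mice and 8, 3, 6, 1 and 5 counts in CD95-Ab mice. The groups overlapped, with a difference of 0.82 in log2(CPM + 0.1) and p = 0.0556 in a two-sided exact permutation test of 5 against 5 mice, chosen after the counts were seen. RNA of an interferon made at another time or in another tissue was not measured.

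Receptors and kinases moved unequally. The type I receptor genes Ifnar1 (0.23 ± 0.12, FDR = 0.136) and Ifnar2 (0.15 ± 0.13, FDR = 0.339) did not pass the test. The interferon gamma receptor genes did, with Ifngr1 at 1.13 ± 0.16 (FDR = 0.000132) and Ifngr2 at 0.82 ± 0.18 (FDR = 0.00279). Of the type III receptor, Ifnlr1 rose from at most 0.207 CPM with saline to 0.513 to 1.69 CPM with CD95-Ab, and its shared subunit Il10rb rose by 0.65 ± 0.17 (FDR = 0.00858). Jak2, the kinase of the interferon gamma receptor, rose from 13.8, 13.7, 10.9, 10 and 10.2 CPM to 37.3, 40.3, 53.9, 54.5 and 52.2 CPM (2.02 ± 0.16, FDR = 2.05e-06). Jak1 rose by 0.74 ± 0.13 (FDR = 0.000695), whereas Tyk2, the kinase of the type I receptor, was at 0.02 ± 0.11 (FDR = 0.906).

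The list of pathway genes, which holds ligands, receptors, kinases, negative regulators, other IRF genes, and sensors and inducers but none of the 35, had 40 genes tested, of which 26 were higher (65%, against 25.4% of all genes) and 4 lower (10%, against 22%). Their median change was 0.89 on the log2 scale. This list too was chosen with earlier results of these data known. Among the negative regulators, Socs1, the inhibitor of JAK kinases, rose from at most 0.385 CPM in saline mice to 1.79 to 7.54 CPM (4.95 ± 0.53, FDR = 1.97e-05). Socs3 (3.56 ± 0.43, FDR = 5.03e-05) and the phosphatase gene Ptpn2 (1.96 ± 0.17, FDR = 4.73e-06) rose too. Of the IRF genes, the myeloid factors Irf8 (2.58 ± 0.21, FDR = 2.59e-06) and Irf5 (1.22 ± 0.19, FDR = 0.000323) rose. Genes called lower included Irf2, a repressor, Irf2bp1 and Mavs, with log2 fold changes of -0.75, -0.73 and -0.52. Of the 16 genes of sensing and induction, 13 rose (81.2%). The cytokines Tnf and Il1b rose by 5.58 ± 0.56 and 3.78 ± 0.41 on the log2 scale, and the kinase gene Ikbke by 3.69 ± 0.31. Sensors of nucleic acids and their adaptors followed, with Tlr9 at 2.58, Tmem173 (STING) at 2.41, Zbp1 at 2.10, Mb21d1 (cGAS) at 1.96, Tlr7 at 1.95, Myd88 at 1.29 and Dhx58 at 1.15, and the lipopolysaccharide receptor gene Tlr4 at 1.87. All of these passed the test, at FDR = 0.0195 or lower. In Tlr9, Zbp1, Tlr7 and Dhx58 the groups overlapped. Saline mice had few counts of Tlr9 (3 to 24) and of Tnf (0 to 6), so the size of these fold changes is uncertain.

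A second list of interferon-stimulated genes outside the 35 showed a like picture. It was chosen, as the 35 were, with earlier results of these data known, so it is not independent support. Of its 86 tested genes, 56 were higher (65.1%, against 25.4% of all genes) and 0 lower (against 22%). The median change was 1.07 on the log2 scale, and 23 also passed the second threshold (26.7%, against 6.59% of all genes). At an unadjusted p under 0.05, 0 were lower in edgeR and limma-voom and 1 in DESeq2. Its 8 largest increases were those of Nos2, Cxcl10, Slfn4, Ms4a4c, Cd69, Isg20, Ifi205 and Slfn2. Cxcl10, a chemokine that draws T cells, was at 4.82, 7.85, 2.11, 2.85 and 2.02 CPM with saline and at 257, 293, 269, 797 and 237 CPM with CD95-Ab (6.56 ± 0.55, FDR = 3.39e-06). Nos2, inducible nitric oxide synthase, was at 0 in saline mice 2, 3 and 4 and at 1.37 to 11.5 CPM in the CD95-Ab mice (6.82 ± 0.83, FDR = 4.89e-05), a fitted value that depends on the prior count. Slfn4 (6.15 ± 0.52), Ms4a4c (3.83 ± 0.54), the activation marker Cd69 (3.45 ± 0.42), the RNA exonuclease Isg20 (3.43 ± 0.38), the DNA sensor family gene Ifi205 (3.40 ± 0.41) and Slfn2 (3.26 ± 0.32) also separated the groups. Several of these genes also respond to inflammatory cytokines.

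Markers of immune cells moved with treatment and, in part, with the mouse order above. For comparison with the counts that follow, 25.4% of all genes tested were higher and 22% lower. The liver itself was evident from the summed level of 8 hepatocyte markers, 110000 to 143000 CPM in saline mice and 55200 to 94000 CPM in CD95-Ab mice, with 3 of the 8 lower. All 7 neutrophil markers tested were higher (4.31 to 11 CPM summed with saline, 113 to 447 with CD95-Ab), as were all 6 monocyte markers (3.32 to 11.8 and 56.4 to 134). Of the T or NK cell markers 10 of 12 were higher (summed 2.84 to 11.3 CPM and 14.8 to 24.4). Plasmacytoid dendritic cells are known as strong producers of interferon, and 6 of 6 tested markers of theirs were higher (summed 8.19 to 12.7 and 20.2 to 31.7). Most of that sum was Tcf4 (mean 8.63 CPM with saline, 20.6 with CD95-Ab). Siglech (0.42 and 1.23 CPM), Ccr9 (0.303 and 0.731) and Klk1 (0.154 and 0.56) were low with overlapping groups. Ly6d (0.444 and 3.7) and Spib (0.302 and 1.12) separated the groups. Cox6a2 and Pacsin1 did not pass the filter. Of the 8 Kupffer cell or macrophage markers 1 was higher, with sums of 167 to 540 and 300 to 662 CPM. Conventional dendritic cells had 2 of 5 tested markers higher (7.21 to 9.66 and 16.0 to 22.9 CPM), and B cells 3 of 4 (0.692 to 3.76 and 2.37 to 14.5 CPM). Most of the rise in the conventional dendritic cell sum was in Itgax (mean 0.761 and 10.1 CPM). Flt3 was also called, whereas Xcr1, Clec9a and Zbtb46 were not. Sinusoidal endothelial (6 of 7), stellate (4 of 6), cholangiocyte (4 of 5) and erythrocyte (5 of 5) markers were higher too, the last at 135 to 323 CPM with saline and 1060 to 34000 CPM with CD95-Ab. Within the saline group, mice 1 and 2 had the highest sums for monocytes (9.57 and 11.8 CPM), Kupffer cells or macrophages (426 and 540 CPM) and T or NK cells (11.3 and 8.62 CPM), but not for neutrophils, where mouse 5 was the highest (11 CPM). Most of the monocyte sum in saline mice 1 and 2 was Fcgr1 (5.45 and 6.93 CPM, against 1.27 to 2.63 in saline mice 3, 4 and 5). The other monocyte markers also had saline mice 1 and 2 highest, except F13a1, which was lowest in mouse 1 (0.0705 CPM). Within the CD95-Ab group the T or NK cell sums were again highest in mice 1 and 2 (24.4 and 20.2 CPM). The monocyte sums there were 79.6, 107, 90.1, 56.4 and 134 CPM in mice 1 to 5, with mouse 5 the highest, and the Kupffer cell or macrophage sums were 580, 662, 440, 300 and 585 CPM. For neutrophils, CD95-Ab mouse 1 was the lowest (113 CPM). The plasmacytoid dendritic cell sums were 12.7, 10.9, 9.24, 8.19 and 11.1 CPM in saline mice 1 to 5. In CD95-Ab mice they were 20.2, 26.9, 31.5, 31.0 and 31.7 CPM, with mice 1 and 2 the lowest. No marker was at 0 in a whole group. The part of these cells in the levels of the interferon-stimulated genes was not tested.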

How the data were processed

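RNA was sequenced from 5 saline and 5 CD95-Ab livers (TruSeq libraries, paired reads of 100 bases). The authors deposited, for each mouse, RSEM (version 1.2.19, per the labels) expected counts, which held whole numbers only, and FPKM values scaled by gene length and depth. The study's methods name a human Gencode release for the RSEM step, whereas the identifiers are those of mouse genes. The mouse release behind them is not given in the sources used here. FPKM values served only to compare levels between genes. The TruSeq kit is not stated to keep strand.

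Expected counts were taken as deposited (25965699 to 62097636 counts per mouse, so that 3 counts equal 0.0556 to 0.121 CPM) and fitted with edgeR 4.0.16 (filterByExpr with a minimum count of 10, TMM factors, quasi-likelihood test, Benjamini-Hochberg adjustment over all 13719 tested genes, R 4.3.3). The thresholds were FDR 0.05 and, as a second one, a log2 fold change of 2, as in the study's methods. CPM were counts scaled to TMM-adjusted totals. Symbols and positions came from GENCODE mouse release 21, which names 37606 of the 38922 identifiers, and promoter windows from RefSeq. Of 62 pathway genes and 91 further interferon-stimulated genes listed, 58 and 88 matched. The unmatched were not analysed here. Replicates of a group are separate mice, and no pair agreed within sampling noise (chi-square per degree of freedom 41.7 to 578 over 20 pairs). Counting limits cover counting error only.

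The members and lists were chosen with earlier results of these data known. All 35 members are named, as are the receptors and kinases of the pathway list, its other called genes with an absolute log2 fold change of 1 or more, and the 8 largest increases of the further list with at least 10 counts in every CD95-Ab mouse. Its largest decreases were to be named as well, but no gene was called lower. Some genes that this rule names are not reported here. Outside it Irf2, Irf2bp1 and Mavs were named after their values were seen.

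Alternatives were DESeq2 1.42.0, limma-voom 3.58.1, other scalings, filters and prior counts, a replicate block and leaving out each mouse. The edgeR, DESeq2 and limma fits were tested on simulated data, where DESeq2 called more unchanged genes than edgeR. Its limit in that test was relaxed after it had failed.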

Additional observations from a re-analysis of the deposited data

Results flagged for a closer look

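In 6 of 70 groups of 5 mice (35 genes, each in both groups), 1 mouse stood far from the other 4 by Dixon's test. Chance alone would give about 3.5 such groups if levels were normally distributed, which was not checked. All 6 flagged values were the highest of their group, and 3.5 is a rough guide only. Mx1 was at 6.02 CPM in saline mouse 2 (others 1.81 to 2.87) and at 24.6 CPM in CD95-Ab mouse 2 (others 11.4 to 13.8). Cmpk2 was at 44.8 CPM in CD95-Ab mouse 2 (others 15.7 to 19.5). Irf1 was at 45.1 CPM in saline mouse 2 (others 13.9 to 20) and at 104 CPM in CD95-Ab mouse 4 (others 50.1 to 61.9). Stat2 was at 127 CPM in CD95-Ab mouse 4 (others 59.3 to 79.0).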

How the results depend on the processing

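The number of the 35 genes called higher was 24 to 28 under DESeq2, limma-voom, other scalings, filters and prior counts and with the 4 mice numbered 1 and 2 set aside, and 24 to 31 with each mouse left out in turn, against 26 as reported. The number lower was 0 in each. With a replicate block, fitting mice of the same number together, 30 were higher, with all 26 among them. Same-numbered mice were not shown to be pairs. Their deviations over all genes tested correlated between -0.274 and 0.257, and 4 of 10 mice correlated best with their own number. No such correlation was taken over the 35 genes alone. Over all genes the block gave 3310 higher and 2677 lower, against 3480 and 3015, and setting the 4 mice aside gave 2390 and 1313. The number with a log2 fold change of 2 or more ranged from 6 to 13 with 1 mouse left out. Of the 4 transcription factors, 2 were higher with the replicate block, 2 with the 4 mice set aside and 1 to 3 with 1 mouse left out. For the further interferon-stimulated genes, 1 was lower with the replicate block (Mov10, named after its values were seen) and 0 to 1 with 1 mouse left out. Bst2 changed sign with library totals only (-0.08), no filter (-0.02), limma-voom (-0.02), the replicate block (-0.03) and the 4 mice set aside (-0.03), and ranged from -0.23 to 0.17 with 1 mouse left out. Scaling by library totals ended the calls of Oas1a and Iigp1, and the replicate block added Oas1g, Irf7, Igtp and Ifi44. The cause of these changes was not tested.

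Depth limits what can be said of the interferon genes, which had few or 0 counts. With 5 mice per group and a wide spread between mice, the genes that did not pass are not shown to be unchanged.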
